A study of Mus musculus with 77 samples.

Results

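The livers described here are the wild-type controls of 2 knockout lines of mice, taken at ZT5, and the comparison asks how far these controls differ from each other. Members were chosen by their labels: 3 Aco1+/+ mice, labelled IRP1_+/+, and 3 Ireb2+/+ mice, labelled IRP2_+/+, are 6 of the 24 mice of the series. Each liver gave 1 library of ribosome-protected fragments (RPF) and 1 library of total RNA, so that 12 of 48 libraries are members. The Aco1+/+ mice are controls of a line with a disrupted Aco1 gene, and the Ireb2+/+ mice are controls of a line with a disrupted Ireb2 gene; per the study's methods all were adult males on a C57BL/6J background. Both groups carry intact alleles of Aco1 and Ireb2, and ZT5 is 5 hours after lights on. The 3 replicates of a group are separate mice, 1 liver each. The other 18 mice are the same lines at ZT12, and the knockouts Aco1-/- and Ireb2-/- at ZT5 and ZT12, and they enter the model that estimates the spread between mice, and below where a value at ZT5 is set beside theirs. Line and batch cannot be separated in this comparison: in sequencing run 340, which holds all 12 libraries, the number that follows the run in the names of the deposited files was 1 for each Aco1+/+ and 3 for each Ireb2+/+ RPF library, and 2 and 4 for the RNA libraries. Any difference below is therefore a difference between these 2 sets of libraries, and line, colony, litter, cage, day of sampling and sequencing cannot be told apart.

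Ribo-seq sequences the stretches of mRNA that translating ribosomes shield from nuclease, and RNA-seq of the same liver measures the mRNA itself, so that their ratio, translation efficiency (TE), gives ribosomes per mRNA. The products of Aco1 and Ireb2, IRP1 and IRP2, bind iron-responsive elements (IREs): at the 5′ end of an mRNA such as that of ferritin they hold back translation, and in the 3′ UTR of Tfrc they protect the mRNA from cleavage. In the liver, ferritin stores iron and ferroportin exports it. Liver also keeps strong daily rhythms: clock proteins drive their own genes and genes of metabolism, and mRNAs of ribosomal proteins, which start with a run of pyrimidines, are loaded with ribosomes in a daily cycle.

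Before the results, 2 livers have to be set apart. Ireb2+/+ replicate 3 held exocrine pancreas RNA: the 12 pancreas markers listed in the files summed to 16857 CPM (counts per 1000000 CDS counts, unscaled) in its RNA library and 22605 CPM in its RPF library, against at most 26.1 and 11.3 CPM in the other 5 livers. Digestive enzyme genes gave these counts, among them Ctrb1 with 4017 CPM of RNA and Pnlip with 2254 CPM of RNA in this liver. The same liver had 66.7% of its RNA counts in coding sequence and 17.2% in 3′ UTRs, whereas the others had 53.5 to 58.8% and 22.8 to 26.9%. Its mitochondrially encoded mRNAs summed to 7626 scaled CPM of RNA against 29340 to 39268 in the others. The second liver is Aco1+/+ replicate 3, whose RPF library is the shallowest (2448915 CDS counts) and whose second sequencing run added 7377 CDS counts. Its 16 immediate early and dissection stress genes summed to 451 scaled CPM of RNA and 795 of RPF, against 134.4 to 194 and 150.2 to 232 in the other 5 livers. In RPF it differed more from the other Aco1+/+ livers than from the Ireb2+/+ livers (below). The part of either liver in any difference was not tested, except by leaving it out. Counts in coding sequence (CDS) of the libraries ran from 1271060 to 3224032 in RNA and, without the shallowest, from 6454816 to 13439600 in RPF. Hepatocyte markers summed to between 152076 and 179066 CPM of RNA in every liver, while markers of B cells, T and NK cells and neutrophils summed to at most 5.73 CPM of RNA. In these bulk samples, fewer cells of a type and less RNA per cell cannot be told apart.

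How far the controls of the 2 lines lay apart, set against livers of one line, depended on 1 liver in each group. Over the 4794 genes with at least 10 scaled CPM in each of the 12 libraries, the SD of the log2 difference between a pair of livers was the measure of distance. A gene below that level in any 1 of these libraries is left out of every distance. In RNA, its median was 0.36 over the 9 pairs between lines, 0.36 within Aco1+/+ and 0.46 within Ireb2+/+. In RPF the medians were 0.41 between lines, 0.43 within Aco1+/+ and 0.27 within Ireb2+/+, and in TE they were 0.39, 0.39 and 0.45. In RPF all 3 distances within Ireb2+/+ were below the smallest between lines. The other medians within a line rest on the livers named above. Aco1+/+ replicates 1 and 2 were 0.27 apart in RNA and 0.24 in RPF, and Ireb2+/+ replicates 1 and 2 were 0.27 and 0.22 apart, all below the smallest distance between lines, 0.33 in either readout. With run 340 alone, Aco1+/+ replicates 1 and 2 were 0.367 apart in RNA, above the smallest distance between lines, 0.364. Ireb2+/+ replicates 1 and 2 were then 0.321 apart in RNA. In RPF both pairs (0.325 and 0.275) stayed below the smallest between lines, 0.349. Ireb2+/+ replicate 3 lay 0.46 and 0.49 from its own group in RNA but only 0.27 and 0.29 in RPF. Aco1+/+ replicate 3 lay 0.43 and 0.45 from its own group in RPF and 0.33 to 0.36 from the 3 Ireb2+/+ livers, and with run 340 alone these distances were 0.45 and 0.49 against 0.35 to 0.38.

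**Figure D1:**
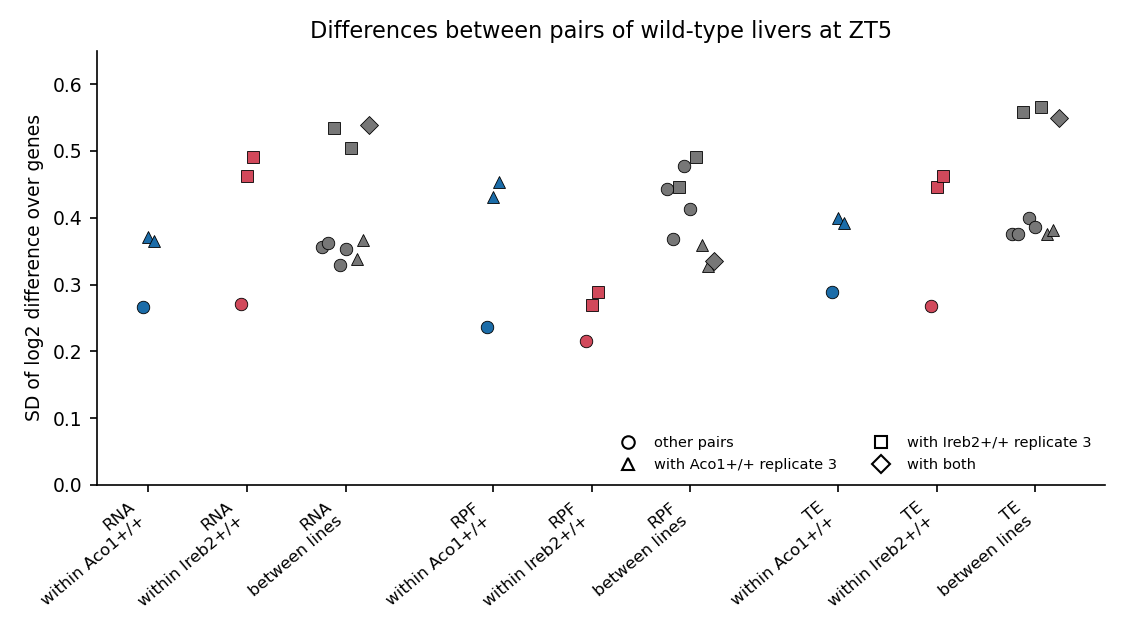
Each point is a pair of wild-type livers at ZT5; the vertical axis is the SD over genes of the log2 difference between both livers in RNA, RPF or TE, and columns split pairs within Aco1+/+, within Ireb2+/+ and between lines. Triangles mark pairs with Aco1+/+ replicate 3, squares pairs with Ireb2+/+ replicate 3, diamonds the pair of both and circles the rest; pairs with Ireb2+/+ replicate 3 are the highest in RNA and TE, and in RPF the pairs of Aco1+/+ replicate 3 with Ireb2+/+ livers (0.33 to 0.36) lie below its pairs with Aco1+/+ livers (0.43 and 0.45).

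Gene by gene, more genes passed the test in ribosome footprints than in RNA, and the number passing did not follow the size of the differences. The median absolute log2 fold change over all genes tested was 0.23 in RNA, 0.24 in RPF and 0.28 in TE, and it was over 1 for 415, 339 and 642 genes. At an adjusted p under 0.05 (edgeR quasi-likelihood test, Benjamini-Hochberg over 10696 genes), 20 genes differed in RNA (0.187% of those tested), 12 higher and 8 lower (0.0748%) in Ireb2+/+. In RPF 325 genes differed (3.04%), 119 higher and 206 lower, and in TE 153 differed (1.43%), 79 higher and 74 lower. A gene passed in at least 1 readout in 452 cases and in all 3 in 0 cases. The groups of 3 did not overlap for 15.3% of genes in RNA, 22.3% in RPF and 18.3% in TE. Among the RPF calls the median absolute log2 fold change was 0.73, and the sizes ran from 0.39 to 2.98. Of the 325 genes called in RPF, 3 were also called in RNA and 41 in TE, all in the same direction as in RPF, and 90 had an unadjusted p under 0.05 in RNA with the same sign. Of the 153 genes called in TE, 41 were called in RPF, and 49 had an RNA difference of the opposite sign at an unadjusted p under 0.05.

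Single livers moved these counts strongly. Without Ireb2+/+ replicate 3, the liver with pancreas RNA, 0 genes passed in RNA, 38 in RPF (0.351%), of which 37 were among the 325, and 0 in TE, while 910, 1690 and 1131 genes had an unadjusted p under 0.05. Leaving out Aco1+/+ replicate 1 gave 0, 19 and 18 genes in RNA, RPF and TE, and leaving out Aco1+/+ replicate 2 gave 0, 1 and 2. Without Ireb2+/+ replicate 1 the counts were 17, 1 and 186, and without Ireb2+/+ replicate 2 they were 19, 165 and 197. Without Aco1+/+ replicate 3, the shallow RPF library, the RPF count rose to 1183 and the others were 21 and 238. With both replicates 3 left out, an alternative chosen after the data were seen, 2, 582 and 49 genes passed, of which 244 in RPF were among the 325. The counts of RPF calls with 1 liver left out thus spanned 1 to 1183.

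**Figure D2:**
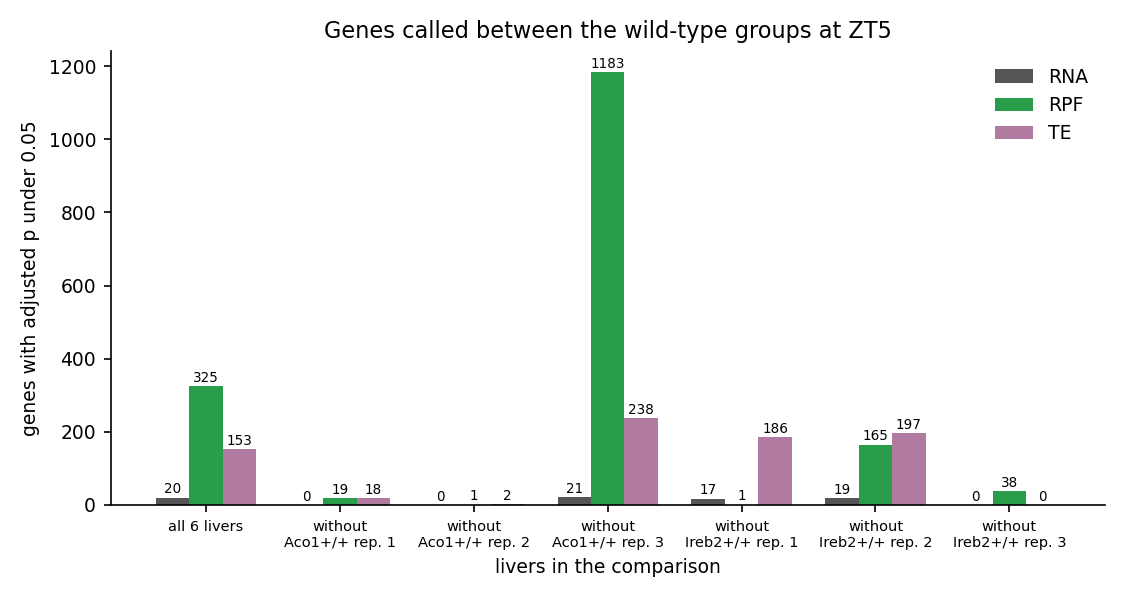
Bars give the number of genes with an adjusted p under 0.05 between Ireb2+/+ and Aco1+/+ at ZT5 in RNA, RPF and TE, with all 6 livers and with 1 liver left out. RPF calls range from 1 to 1183, and the highest bar is the comparison without Aco1+/+ replicate 3.

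The RNA differences with the smallest adjusted p included a clock-controlled gene. Usp2 (chromosome 9, 44067021 to 44095627, GRCm38), which encodes a ubiquitin protease and oscillates in liver, had 1.32, 2.40 and 2.54 scaled CPM of RNA in Aco1+/+ and 8.56, 7.36 and 13.8 in Ireb2+/+ livers. All 3 Ireb2+/+ livers were above all 3 Aco1+/+ livers (log2 fold change 2.19 ± 0.41 (SE), adjusted p = 0.0147). Its footprints followed, with 1.52, 3.34 and 3.64 against 17.2, 11.6 and 15.0 CPM (log2 fold change 2.48 ± 0.40, adjusted p = 0.0125). The footprint call held without Ireb2+/+ replicate 3 (log2 fold change 2.47, adjusted p = 0.0288). It was lost without Aco1+/+ replicate 2 and without Ireb2+/+ replicate 1, where the 1 gene called in RPF was lower. The RNA call was lost without Aco1+/+ replicate 1, Aco1+/+ replicate 2 or Ireb2+/+ replicate 3, where 0 genes passed in RNA. In RNA the Usp2 values rest on 3, 9 and 4 counts in Aco1+/+ and 31, 12 and 24 counts in Ireb2+/+. At ZT12 the same lines did not separate: the fitted log2 fold change between wild types was 0.18 in RNA and -0.04 in RPF.

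Of 17 core clock genes tested, 1 was higher and 1 lower in RPF, where 1.11% of all genes were higher and 1.93% lower, and 0 passed in RNA or TE. At an unadjusted p under 0.05, 5 were higher and 3 lower in RNA, and 6 and 2 in RPF. Over all genes these shares were 6.06 and 5.67% in RNA and 9.05 and 11.3% in RPF. Without Ireb2+/+ replicate 3, 0 of the 17 passed in any readout. At that unadjusted p, 4 were then higher and 1 lower in RNA, and 6 and 1 in RPF. Per3, a repressor of the clock, had footprints at 0.970, 0.557 and 1.36 CPM in Aco1+/+ and 2.65, 3.80 and 3.64 CPM in Ireb2+/+ (log2 fold change 1.92 ± 0.42 (SE), adjusted p = 0.0195), which are 7, 3 and 3 counts against 19, 43 and 28. Npas2, an activator that can pair with BMAL1 in place of CLOCK, went the other way, with 2.49, 1.86 and 0.910 against 0.279, 0.177 and 0.260 CPM (log2 fold change -2.98 ± 0.62, adjusted p = 0.0195). Here every Ireb2+/+ library held 2 counts, under the floor of 3 counts, and the Aco1+/+ libraries held 18, 10 and 2, so that the size of the fitted change is uncertain. The groups did not overlap for either gene. Among 13 clock output genes, Usp2 and Por were higher in RNA, Usp2 in RPF, and Tsc22d3, a glucocorticoid-induced gene, was lower in TE (log2 fold change -0.98 ± 0.26, adjusted p = 0.0399), against 0.112% of all genes higher in RNA and 0.692% lower in TE. Por (chromosome 5, 135670040 to 135735326), the reductase that feeds electrons to microsomal cytochromes P450, had 89.6, 102 and 120.4 CPM of RNA in Aco1+/+ and 194, 194 and 219 in Ireb2+/+, and the groups did not overlap (log2 fold change 0.97 ± 0.19, adjusted p = 0.0216). Dbp, a clock output factor named after its values were seen, did not pass, although its raw RNA counts were 25, 34 and 42 in Aco1+/+ and 165, 75 and 88 in Ireb2+/+. The medians of the core clock list were 0.25 in RNA and 0.10 in RPF, against -0.01 and -0.03 over all genes tested, and without Ireb2+/+ replicate 3 they were -0.05 and 0.06. Of the output genes, 1 passed without that liver, Usp2 in RPF. At an unadjusted p under 0.05, 5 of the 13 output genes were higher and 1 lower in RNA, and likewise in RPF. Without that liver the numbers were 5 and 2 in either readout.

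Promoter letters of clock genes are shown because Per3 passed in RPF and holds the only D-boxes found in the set. In RefSeq promoters (GRCm38.p6, 250 bases before to 50 after the start; 23 of 30 clock genes matched, 34 promoters), 3 motifs were searched on both strands: the E-box CACGTG bound by CLOCK and BMAL1, the D-box TTANGTAA bound by DBP, TEF and HLF, and the RORE NTAGGTCA bound by REV-ERB and ROR. The motif letters are in capitals, and each window is given 5′ to 3′ on the strand of its gene.
Per3, D-box 158 bases before the start, minus strand, chr4:151044805-151044834: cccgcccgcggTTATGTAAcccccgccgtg
Per3, D-box 205 bases before the start, minus strand, chr4:151044852-151044881: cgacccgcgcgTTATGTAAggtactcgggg
Per1, E-box 166 bases before the start, plus strand, chr11:69098772-69098799: gcacccaagtcCACGTGcagggatgtgt
Ciart, E-box 44 bases before the start, minus strand, chr3:95882256-95882283: gtgcagaaccgCACGTGtctgggagggg
Arntl, RORE 29 bases after the start, plus strand, chr7:113207529-113207558: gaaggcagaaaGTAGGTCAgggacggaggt
A D-box was found in 2.32% of all 32851 promoters, an E-box in 7.15% and an RORE in 2.59%. The E-box was found in 5 of the 23 matched genes and the RORE in 2. Per1, Ciart and Arntl are printed as other examples of the motifs, not for their values, and a match is a description of letters.

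Oat and some genes of the hepatocyte zone around the central vein were higher in Ireb2+/+. Oat (chromosome 7, 132557475 to 132576398), ornithine aminotransferase, had 756, 597 and 629 CPM of RNA in Aco1+/+ and 1443, 1098 and 1519.8 CPM in Ireb2+/+ livers (log2 fold change 1.04 ± 0.18 (SE), adjusted p = 0.0147). Its footprints were 1465, 1116 and 1298 against 3163, 2356 and 2689 CPM (log2 fold change 1.08 ± 0.18, adjusted p = 0.00918), also past the threshold without Ireb2+/+ replicate 3 (adjusted p = 0.0288). The Oat footprint call was lost without Aco1+/+ replicate 2 and without Ireb2+/+ replicate 1. The Oat RNA call was lost without Aco1+/+ replicate 1, Aco1+/+ replicate 2 or Ireb2+/+ replicate 3. Every Ireb2+/+ liver exceeded every Aco1+/+ liver in both readouts. Oat is one of 12 markers of pericentral hepatocytes, of which 1 was higher in RNA (0.112% of all genes) and 3 in RPF (1.11% of all genes), with 0 lower in either and 0 and 1 passing without Ireb2+/+ replicate 3; the others in RPF were Slc1a2, a glutamate transporter (198, 169 and 233 against 317, 299.5 and 312 CPM, log2 fold change 0.63 ± 0.17, adjusted p = 0.0413), and Gulo, an enzyme of vitamin C synthesis, which is named after its values were seen (419, 475 and 573 against 769.8, 618 and 669 CPM). Summed over the 12 genes, scaled RNA was 8006, 8115 and 7214 CPM in Aco1+/+ and 10268, 11463 and 10055 CPM in Ireb2+/+. The median of the list was 0.49 in RNA and 0.48 in RPF. The 12 periportal markers gave 0 calls, with 2 at an unadjusted p under 0.05 in RNA and a median of 0.13.

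Genes of nitrogen handling and amino acid breakdown that passed in RPF were higher in Ireb2+/+. Over all genes, 1.11% were higher in RPF. Among 14 genes of the urea cycle and ammonia handling, 3 were higher in RPF and 0 lower, Oat, Slc1a2 and Slc25a13; the last, the mitochondrial aspartate-glutamate carrier, had 322, 265 and 343 against 442, 431 and 382 CPM (log2 fold change 0.43 ± 0.11 (SE), adjusted p = 0.0399). Of 35 genes of amino acid catabolism, 2 were higher and 0 lower in RPF: Aass, which starts lysine breakdown (427, 439 and 537 against 786, 709 and 649.9 CPM, log2 fold change 0.61 ± 0.16, adjusted p = 0.0354), and Agxt2, a mitochondrial aminotransferase (194, 229.6 and 202 against 328, 271 and 255 CPM, log2 fold change 0.45 ± 0.12, adjusted p = 0.0394). In all of these the 3 Ireb2+/+ livers lay above the 3 Aco1+/+ livers. The list medians in RPF were 0.22 and 0.20, against -0.03 over all genes, and without Ireb2+/+ replicate 3, 1 gene of the urea list and 0 of amino acid catabolism passed in RPF. Of 25 genes of cholesterol synthesis and uptake, 1 was higher in RNA, where 0.112% of all genes were higher. It was Nsdhl, a late enzyme of the pathway, with 26.4, 36.5 and 33.6 against 59.9, 41.1 and 67.5 CPM (log2 fold change 0.80 ± 0.18, adjusted p = 0.0356). The list median was 0.42 in RNA, and 12 of the 25 were above 0 and 1 below at an unadjusted p under 0.05, against 6.06 and 5.67% of all genes; without Ireb2+/+ replicate 3 these were 7 and 1, and 0 passed. Pmvk, phosphomevalonate kinase, was lower in TE (log2 fold change -1.08 ± 0.27, adjusted p = 0.0295), with log2 ratios of RPF to RNA of 2.15, 1.64 and 1.82 in Aco1+/+ and 1.13, 0.93 and 0.18 in Ireb2+/+.

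Bile acid genes passed in the footprint readouts but not in RNA. Of 18 genes, 2 were higher in RPF and 4 in TE, and 0 in RNA, with 0 lower in any readout; over all genes 1.11% were higher in RPF and 0.739% in TE. Without Ireb2+/+ replicate 3, 0 of the 18 passed. Abcb11, the export pump for bile salts, had 845, 702 and 778 CPM of RPF in Aco1+/+ and 1200.2, 1064 and 1180.1 CPM in Ireb2+/+, without overlap (log2 fold change 0.57 ± 0.13 (SE), adjusted p = 0.0283). Its TE, as log2 of RPF over RNA, was -0.49, -0.81 and -0.60 against -0.02, -0.04 and 0.49 (log2 fold change 0.77 ± 0.13, adjusted p = 0.00141), the highest value being that of Ireb2+/+ replicate 3, and without that liver it was 0.60 (adjusted p = 0.0657). Nr1h4, the nuclear receptor FXR that senses bile acids, was higher in RPF (129, 117 and 163 against 225, 189.7 and 193 CPM, log2 fold change 0.57 ± 0.14, adjusted p = 0.0283). The uptake carrier Slco1b2 was higher in TE (log2 fold change 0.50 ± 0.10, adjusted p = 0.0109), as was Slco1a1 (log2 fold change 0.59 ± 0.12, adjusted p = 0.0109). The medians of the 18 genes were -0.02 in RNA, 0.18 in RPF and 0.23 in TE, against -0.01, -0.03 and -0.02 over all genes.

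**Figure D3:**
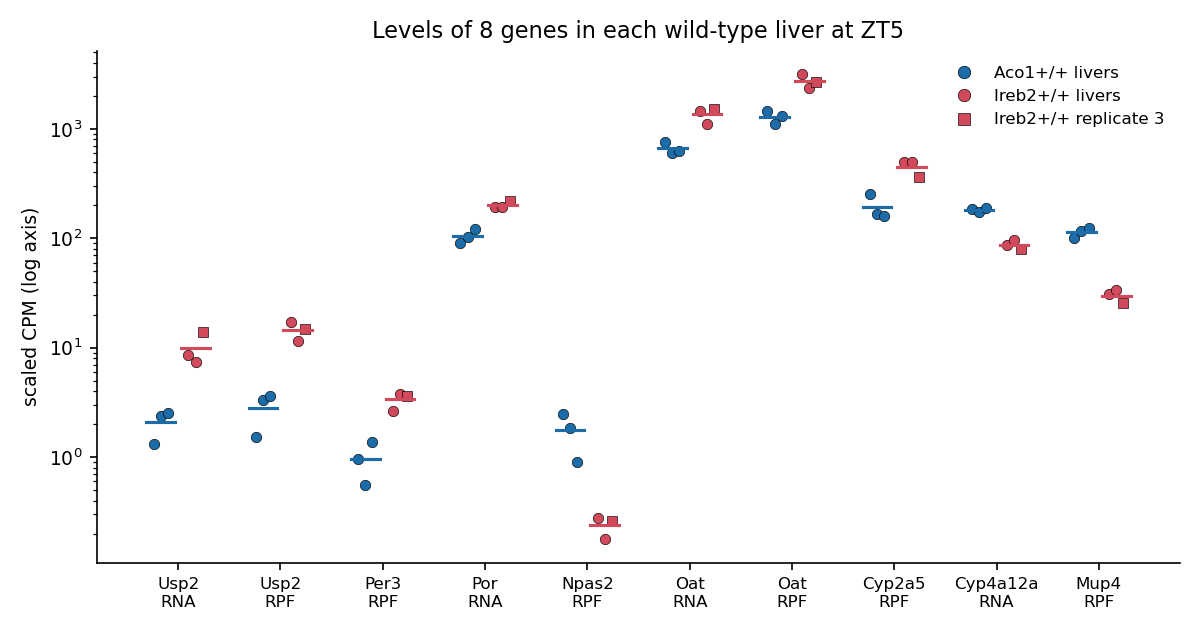
Points are single wild-type livers at ZT5 of Aco1+/+ and Ireb2+/+ mice, with the level of each of 8 genes in RNA or RPF on a log axis (scaled CPM); lines mark group means and squares Ireb2+/+ replicate 3. The groups of 3 do not overlap in Usp2 RNA, where Aco1+/+ livers reach 2.54 CPM and Ireb2+/+ livers start at 7.36 CPM.

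The group with the most calls was that of the cytosolic ribosomal proteins, whose footprints were lower in Ireb2+/+. Of 82 listed genes 76 were tested, and 31 were lower and 0 higher in RPF, where 1.93% of all genes tested were called lower. Summed over the 76 genes, RPF was 2389.8, 3133 and 2051 CPM in the Aco1+/+ livers and 903, 1378 and 1524 CPM in the Ireb2+/+ livers. All 3 Ireb2+/+ sums lay below all 3 Aco1+/+ sums. The RNA sums overlapped: 4162, 4206 and 3118 against 3065, 3180.5 and 2365 CPM. The ratio of both sums was 0.574, 0.745 and 0.658 in Aco1+/+ and 0.295, 0.433 and 0.645 in Ireb2+/+, the last value, that of replicate 3, being within the Aco1+/+ range. The median log2 fold change was -0.50 in RNA, -1.10 in RPF and -0.66 in TE. In RNA 0 genes passed, with 39 lower at an unadjusted p under 0.05 (5.67% over all genes), and 4 were lower in TE (0.692%). Without Ireb2+/+ replicate 3, 21 were lower in RNA at that unadjusted p, and 0 passed in TE. In the large and the small subunit, 16 of 44 and 15 of 32 genes were lower in RPF, with medians of -1.12 and -1.05.

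The number of ribosomal protein genes called depended on the livers used. Without Aco1+/+ replicates 1, 2 and 3 in turn, 4, 0 and 46 genes were lower in RPF, and without Ireb2+/+ replicates 1, 2 and 3, 0, 17 and 11 were. The medians of these comparisons ran from -1.21 to -0.88. Rps6, whose phosphorylation follows growth signals, had 15.0, 23.02 and 12.7 CPM of RPF in Aco1+/+ and 6.28, 8.49 and 4.95 CPM in Ireb2+/+ (log2 fold change -1.37 ± 0.25 (SE), adjusted p = 0.0125). Rpl14, of the large subunit, had 22.4, 30.8 and 22.7 against 6.84, 11.9 and 12.9 CPM (log2 fold change -1.26 ± 0.24, adjusted p = 0.0168) and was also lower in TE (log2 fold change -1.37 ± 0.28, adjusted p = 0.0109). Rpl27a had the largest difference of the list, 18.3, 24.1 and 20.0 against 2.51, 4.95 and 5.86 CPM (log2 fold change -2.21 ± 0.42, adjusted p = 0.0195). These genes did not overlap between groups, and all of them passed in RPF without Ireb2+/+ replicate 3. Ribosomal protein genes have many near-identical pseudogenes, and how shared reads were assigned is not given in the sources used here, so that single values are uncertain.

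The start of ribosomal protein mRNAs is shown because these mRNAs are known for a pyrimidine run at their 5′ end. Windows of 30 bases around the RefSeq start (GRCm38.p6) were searched on the strand of the gene for CTTT, in capitals, within 7 bases before to 12 after the start; 56 of the 76 genes matched, with 67 promoters.
Rps6, minus strand, chr4:86857348-86857377: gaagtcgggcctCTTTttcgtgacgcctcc
Rpl27a, plus strand, chr7:109519185-109519214: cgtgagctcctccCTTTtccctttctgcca
Rps10, minus strand, chr17:27635225-27635254: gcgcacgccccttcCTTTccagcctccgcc
Rpl38, plus strand, chr11:114668570-114668599: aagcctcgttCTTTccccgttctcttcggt
Rps6, Rpl27a, Rps10 and Rpl38 are the 4 genes with CTTT there that had the smallest adjusted p in RPF. CTTT was found in 14 of the 56 matched genes and in 7.28% of all 32851 promoters. No match says only that these letters are absent from this window.

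**Figure D4:**
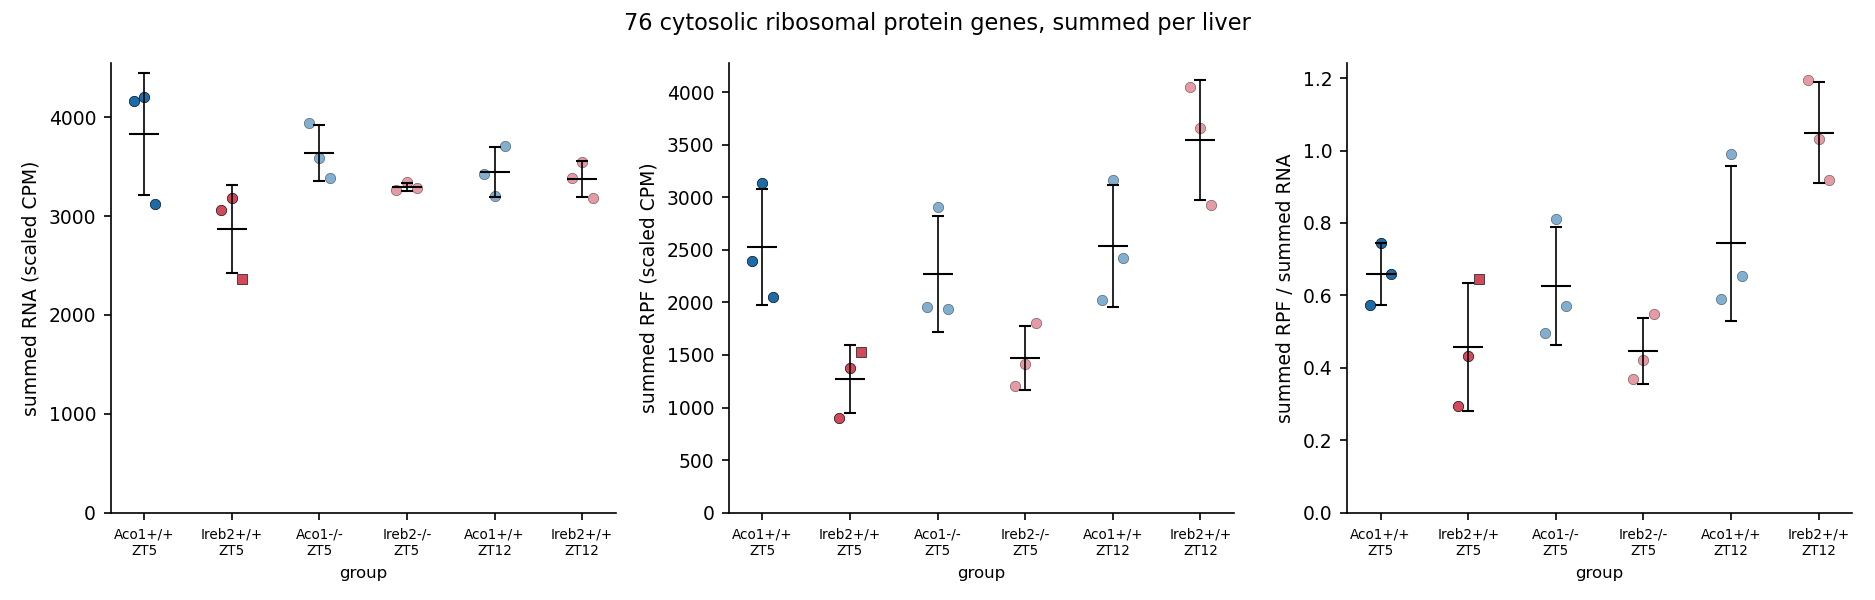
Points give, for each liver, the summed scaled CPM of 76 cytosolic ribosomal protein genes in RPF and RNA and the ratio of both sums, for wild types at ZT5, knockouts at ZT5 and wild types at ZT12 of both lines; lines and error bars are mean ± SD of 3 livers, and the square is Ireb2+/+ replicate 3. At ZT5 the wild-type RPF sums of Ireb2+/+ (903 to 1524) lie below those of Aco1+/+ (2051 to 3133), and at ZT12 those of Ireb2+/+ are 2926 to 4050 against 2025 to 3164.

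At ZT12 the sums of ribosomal protein footprints overlapped between the lines. The RPF sums of the wild types were 2025, 3164 and 2420.4 CPM in Aco1+/+ and 4050.3, 3659 and 2926 CPM in Ireb2+/+, which overlap, and the list median was 0.47. Of the 76 genes, 70 had an RPF difference above 0 at ZT12. At an unadjusted p under 0.05, 21 were higher and 0 lower (7.12% of all genes in either direction). For the difference of the line effect between ZT5 and ZT12 the RPF median was -1.59, with 69 lower and 0 higher at that unadjusted p (10.1% of all genes in either direction). In knockouts at ZT5, Ireb2-/- against Aco1-/-, the median was -0.55. The difference of the line effect between ZT5 and ZT12 passed for 3 members in RPF (0.0561% of all genes), Rps6, Rpl38 and Rpl23a, and for Rpl14 in TE (0.0467%).

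Some translation factors and respiratory chain genes were lower in RPF as well. Of 45 translation factors, 1 was higher and 6 were lower, with a median of -0.27, against 1.11 and 1.93% of all genes, and without Ireb2+/+ replicate 3, 0 were higher and 2 lower. Eif3k, a subunit of the factor eIF3, had 93.0, 100.4 and 86.9 CPM in Aco1+/+ and 53.7, 67.3 and 66.5 CPM in Ireb2+/+ (log2 fold change -0.58 ± 0.13 (SE), adjusted p = 0.0195), without overlap. Eif5b, which joins ribosomal subunits, was higher (log2 fold change 0.54 ± 0.13, adjusted p = 0.0327), and Eif4ebp2, which holds back the cap-binding factor, was lower in TE (log2 fold change -1.21 ± 0.26, adjusted p = 0.0109). Of 75 nuclear genes of the respiratory chain, 13 were lower and 0 higher in RPF and 9 were lower in TE (0.692% over all genes); 9 of the 13 were among the 36 genes of complex I. Cox6a1, a subunit of cytochrome c oxidase, had 555, 542 and 407 against 283, 348 and 286 CPM of RPF (log2 fold change -0.72 ± 0.15, adjusted p = 0.0195) and log2 RPF to RNA ratios of 2.01, 1.80 and 2.27 against 1.24, 1.49 and 0.82 (log2 fold change -0.82 ± 0.14, adjusted p = 0.00141). Its TE call held in 5 of the 6 comparisons that leave out 1 liver. It was lost without the term for each mouse and with limma on the TE of each liver, where 0 genes passed. The ATP synthase gene Atp5g1 had 16.6, 17.6 and 12.7 against 7.12, 7.17 and 5.99 CPM of RPF (log2 fold change -1.24 ± 0.23, adjusted p = 0.0125). The respiratory medians were -0.11 in RNA, -0.39 in RPF and -0.24 in TE. Without Ireb2+/+ replicate 3, 1 gene of the list was lower in RPF and 0 in TE, and without Aco1+/+ replicate 3, 44 were lower and 1 was higher in RPF.

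The RPF difference also varied with the genomic span of the gene. Over 10536 genes with a position, Spearman's correlation between span and the RPF log2 fold change was 0.41, a description across genes that share libraries and are not independent. In 5 equal groups of genes from the shortest to the longest, the medians were -0.28, -0.11, -0.02, 0.08 and 0.16. Genes called lower numbered 118, 47, 20, 9 and 5 in these groups, and genes called higher 3, 9, 12, 38 and 56. The correlation was 0.12 in RNA and 0.26 in TE. Between the knockouts of both lines at ZT5 the RPF correlation was 0.29, between wild types at ZT12 it was 0.20, and between knockouts at ZT12 it was -0.10. The shares of RPF counts in UTRs differed too: 5′ UTRs held 3.14, 2.73 and 1.92% in Aco1+/+ and 1.73, 1.89 and 1.20% in Ireb2+/+, and 3′ UTRs held 0.324, 0.331 and 0.279% against 0.219, 0.234 and 0.214%. Neither share overlapped between groups (exact permutation test, two-sided p = 0.1, the smallest that 3 against 3 can give). The part of these library measures in the gene differences was not tested.

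Some major urinary protein, male-high and acute-phase genes were lower in Ireb2+/+, and 0 genes of these 3 lists passed without Ireb2+/+ replicate 3. The major urinary proteins (Mup), pheromone carriers made in male liver, summed to 7479, 7797 and 7309 CPM of RNA in Aco1+/+ and 5154, 5048 and 4670.2 CPM in Ireb2+/+. Every Ireb2+/+ sum was below every Aco1+/+ sum. Of 16 genes tested, 0 passed in RNA and 3 were lower in RPF (1.93% over all genes), and in TE Mup16 was higher and Mup4 lower; Mup4 had 99.5, 115 and 124.6 against 30.7, 33.4 and 25.6 CPM of RPF (log2 fold change -1.91 ± 0.41 (SE), adjusted p = 0.0279). Mup genes are nearly identical in sequence, so values of single members are uncertain, and the same holds for the Serpina1 and Serpina3 families. Of 19 genes known to be higher in males, Cyp4a12a, a fatty acid hydroxylase, was lower in RNA, with 185, 172 and 188 against 86.4, 96.3 and 79.0 CPM (log2 fold change -1.06 ± 0.19, adjusted p = 0.0147), and Cspg5 was lower in RPF (log2 fold change -1.88 ± 0.50, adjusted p = 0.0405). Over all genes, 0.0748% were lower in RNA and 1.93% in RPF. The list medians were -0.30 in RNA and -0.39 in RPF. In TE, 1 of the 19 was higher, Slco1a1, and 1 lower, Gstp1, against 0.739 and 0.692% of all genes. Among 28 acute-phase proteins, 2 were lower in RPF and 0 higher: Hp, haptoglobin, which binds free hemoglobin (5912, 5601 and 6126 against 4008, 4609.6 and 3655 CPM, log2 fold change -0.52 ± 0.14, adjusted p = 0.0423), and Lrg1 (394, 504 and 605 against 296, 305 and 271 CPM, log2 fold change -0.78 ± 0.18, adjusted p = 0.0258). Of 14 apolipoprotein genes, 13 had a TE difference below 0 and 1 above, with a median of -0.22; 8 were below and 1 above with an unadjusted p under 0.05, which became 2 and 1 when Ireb2+/+ replicate 3 was left out. Over all genes the TE median was -0.02, and 7.72% were below and 7.54% above 0 at that unadjusted p. Apob was higher in TE (log2 fold change 0.72 ± 0.16, adjusted p = 0.0337) and Apoc3 was lower (log2 fold change -0.44 ± 0.11, adjusted p = 0.0212). Of 43 complement and coagulation genes, 0 were lower in any readout and 1 was higher, in TE (0.739% over all genes). In RNA 10 of them were below and 0 above 0 with an unadjusted p under 0.05, against 5.67 and 6.06% over all genes, with a median of -0.11. Without Ireb2+/+ replicate 3 these were 4 and 0, with a median of -0.06. Serpina1c, an alpha-1-antitrypsin gene, was lower in RPF (4468, 4569 and 3973 against 1958, 2927 and 3112 CPM, log2 fold change -0.70 ± 0.16, adjusted p = 0.0205).

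**Figure D5:**
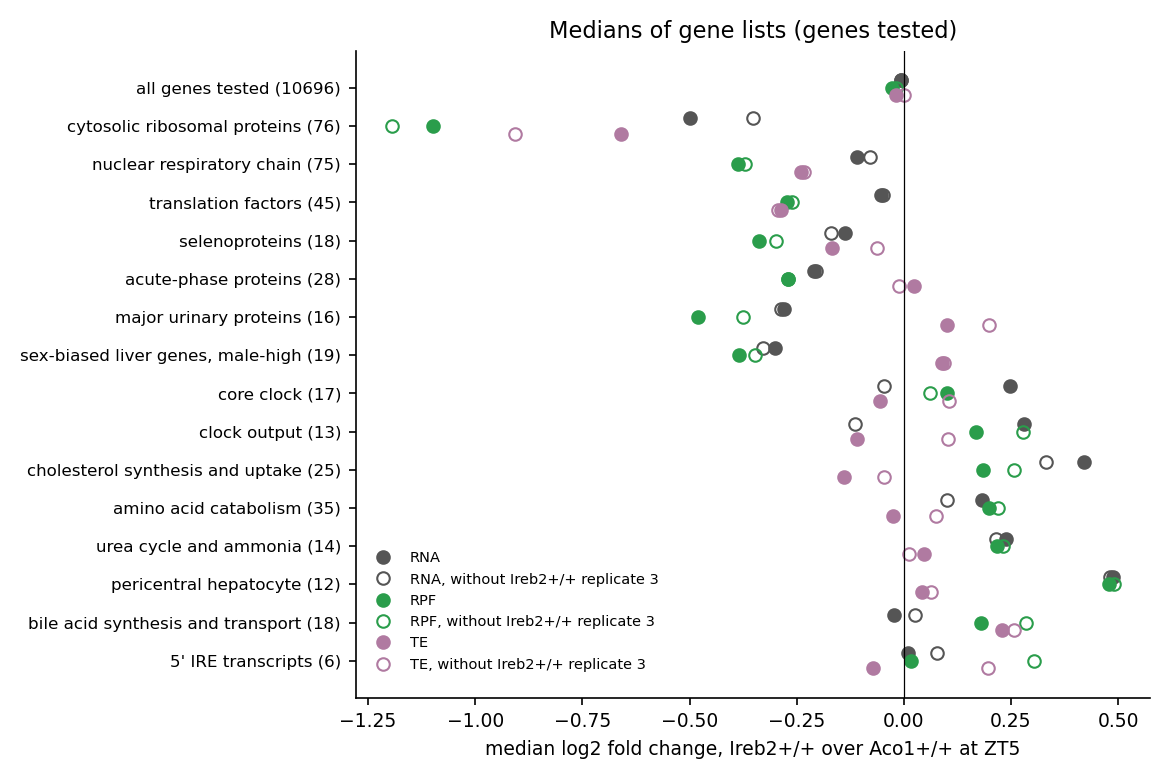
Points give the median log2 fold change (Ireb2+/+ over Aco1+/+ at ZT5) of gene lists in RNA, RPF and TE, filled with all 6 livers and open without Ireb2+/+ replicate 3, with the number of genes in brackets; the vertical line marks 0. The list of cytosolic ribosomal proteins has the lowest RPF median of those drawn, -1.10, and pericentral hepatocyte markers lie at 0.48.

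Drug-metabolizing enzymes showed calls in both directions. Of 44 cytochrome P450 genes of families 2, 3 and 4 tested, Cyp4a12a was lower in RNA, 2 were higher and 1 lower in RPF, and Cyp3a25 was higher in TE (log2 fold change 0.61 ± 0.14 (SE), adjusted p = 0.0159). Cyp2a5, a coumarin hydroxylase, had 252, 166 and 159.6 against 495, 496 and 359.9 CPM of RPF (log2 fold change 1.22 ± 0.27, adjusted p = 0.0294), and Cyp2c39 had 1.11, 0.557 and 1.36 against 3.49, 5.66 and 2.34 CPM (log2 fold change 2.03 ± 0.45, adjusted p = 0.0195). Cyp2d40 went down, with 30.3, 33.8 and 41.4 against 14.5, 19.7 and 19.9 CPM (log2 fold change -0.94 ± 0.17, adjusted p = 0.0125). None of these overlapped between groups, but Cyp2c39 had 8, 3 and 3 RPF counts in Aco1+/+, so that its size is uncertain. Over all genes, 3.04% were called in RPF and 1.43% in TE, and without Ireb2+/+ replicate 3 the calls of the 44 genes were 1 higher and 1 lower in RPF and 0 in RNA and TE. These families hold close paralogs, so reads may be split between members. In phase II conjugation, 41 genes tested, 1 was lower and 0 higher in RPF, Ugt2b5 was higher in TE (log2 fold change 0.42 ± 0.10, adjusted p = 0.0184), and Gstp1 (log2 fold change -0.54 ± 0.12, adjusted p = 0.0184) and Gstm3 (log2 fold change -1.21 ± 0.32, adjusted p = 0.0367) were lower in TE.

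The other genes named in RNA have no list in common. Higher in Ireb2+/+ were Mnt, a MYC antagonist (0.439, 2.40 and 1.90 against 4.14, 6.14 and 12.7 CPM, log2 fold change 2.06 ± 0.47 (SE), adjusted p = 0.0401), Fbxo34 (log2 fold change 1.37 ± 0.30, adjusted p = 0.0356), Pitpnc1, a lipid transfer protein (log2 fold change 1.40 ± 0.32, adjusted p = 0.0499), and Baiap2l1 (log2 fold change 1.16 ± 0.23, adjusted p = 0.0189). Lower in Ireb2+/+ were Ccdc159 (log2 fold change -2.27 ± 0.48, adjusted p = 0.0346), Sec61g, a subunit of the ER translocon (15.8, 18.1 and 8.24 against 4.42, 4.91 and 0.577 CPM, log2 fold change -2.05 ± 0.41, adjusted p = 0.0216), Chrd, a BMP antagonist (log2 fold change -1.82 ± 0.40, adjusted p = 0.0356), and Tmem167 (log2 fold change -1.15 ± 0.25, adjusted p = 0.0356). Clk4, a kinase of splicing factors, had 28.6, 40.3 and 23.4 against 11.9, 16.6 and 17.3 CPM (log2 fold change -1.10 ± 0.21, adjusted p = 0.0189). Prdx4, an ER peroxiredoxin (log2 fold change -0.69 ± 0.15, adjusted p = 0.0356), and Lifr, the receptor of leukemia inhibitory factor (693, 691 and 572 against 402, 479.9 and 373 CPM, log2 fold change -0.64 ± 0.14, adjusted p = 0.0356), were lower by less. Counts of RNA were 7, 2 and 1 for Ccdc159 and 16, 8 and 1 for Sec61g in Ireb2+/+, and 1, 9 and 3 for Mnt in Aco1+/+, and the sizes of these differences are uncertain. In Ccdc159, Sec61g and Mnt the most extreme Ireb2+/+ liver was replicate 3. All RNA calls were lost without it, and they were also lost without Aco1+/+ replicate 1 or Aco1+/+ replicate 2.

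Among the largest differences in RPF, Slc5a6, a vitamin transporter (log2 fold change 1.66 ± 0.46 (SE), adjusted p = 0.0448), Nes (log2 fold change 1.46 ± 0.37, adjusted p = 0.0377) and Neb (log2 fold change 1.34 ± 0.35, adjusted p = 0.0423) were higher. Lower were Mup13 (log2 fold change -2.46 ± 0.62, adjusted p = 0.0433), Mup6 (log2 fold change -2.22 ± 0.48, adjusted p = 0.0283), Serpina3i (log2 fold change -2.31 ± 0.61, adjusted p = 0.0448), Serpina3a (log2 fold change -2.30 ± 0.62, adjusted p = 0.0413) and the replication histones Hist1h4a (log2 fold change -2.26 ± 0.51, adjusted p = 0.0232) and Hist1h4j (log2 fold change -2.19 ± 0.55, adjusted p = 0.0348), which have near-identical copies. In Ireb2+/+ the RPF counts were 4, 8 and 2 for Serpina3a, 2, 17 and 6 for Hist1h4a and 2, 13 and 3 for Hist1h4j, so that these sizes are uncertain. Mup13 footprints were 67.9, 72.2 and 80.5 against 14.2, 13.7 and 12.0 CPM, so that the Aco1+/+ livers lay far above the others.

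In TE, 79 genes were higher (0.739% of those tested) and 74 lower (0.692%). Zfp944, a zinc finger protein, had log2 RPF to RNA ratios of -3.42, -2.91 and -4.26 in Aco1+/+ and -1.43, -0.91 and -0.54 in Ireb2+/+ (log2 fold change 2.44 ± 0.59 (SE), adjusted p = 0.0243). The genes Mup16 (log2 fold change 2.06 ± 0.38, adjusted p = 0.0177), Zfp800 (log2 fold change 1.15 ± 0.31, adjusted p = 0.0412), Abhd18 (log2 fold change 1.11 ± 0.25, adjusted p = 0.0177), Kansl1l (log2 fold change 1.09 ± 0.30, adjusted p = 0.0483) and Thada (log2 fold change 1.02 ± 0.27, adjusted p = 0.0337) were higher too. Prkdc, the catalytic subunit of a DNA repair kinase (log2 fold change 0.99 ± 0.23, adjusted p = 0.0184), and Vps13a, a lipid transfer protein (log2 fold change 0.96 ± 0.24, adjusted p = 0.0268), were higher as well. Cmtm3 was lower, with ratios of 2.11, 1.72 and 5.04 against -0.15, -0.96 and -0.47 (log2 fold change -2.75 ± 0.64, adjusted p = 0.0184), and its RNA was at 0.879, 1.33 and 0 against 2.49, 4.91 and 3.46 CPM. Its RNA counts in Aco1+/+ were 2, 5 and 0, those of Morn2 were 3, 3 and 2, and the RPF counts of Zfp944 there were 4, 5 and 1. Those of RNA were 4, 9 and 2 for Card19 and 3, 13 and 3 for Ccdc86. These lie around the floor of 3 counts, so that the sizes of these 5 differences are uncertain. Morn2 (log2 fold change -2.72 ± 0.68, adjusted p = 0.0268), Card19 (log2 fold change -2.07 ± 0.54, adjusted p = 0.0359), Laptm5, a lysosomal protein of blood cells (log2 fold change -1.74 ± 0.38, adjusted p = 0.0144), Ccdc86 (log2 fold change -1.67 ± 0.44, adjusted p = 0.0384), Desi1 (log2 fold change -1.62 ± 0.36, adjusted p = 0.0144) and Rpl36 (log2 fold change -1.92 ± 0.48, adjusted p = 0.0268) were also lower. Without the term for each mouse in edgeR, and with limma on the TE of each liver, 0 genes passed, with 951 and 1511 genes at an unadjusted p under 0.05.

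Of the IRP genes, Aco1 passed in RPF and none passed in RNA or TE. Aco1 (chromosome 4, 40143265 to 40199009), the gene disrupted in the other arm of its line, had 245, 239 and 249.7 CPM of RNA in Aco1+/+ and 311, 291 and 323 CPM in Ireb2+/+ livers (adjusted p = 0.269). In RPF the values were 397, 347.1 and 486 against 622, 521 and 607 CPM (log2 fold change 0.51 ± 0.13 (SE), adjusted p = 0.0334), with every Ireb2+/+ liver above every Aco1+/+ liver, and without Ireb2+/+ replicate 3 the adjusted p was 0.105. At ZT12 its fitted RPF difference was 0.00. Ireb2 (chromosome 9, 54862658 to 54912534) had 63.2, 67.9 and 56.9 against 79.3, 78.1 and 66.6 CPM of RPF, which overlap (adjusted p = 0.321). Fbxl5, which marks IRP2 for degradation when iron is plentiful, had 21.9, 20.2 and 20.0 against 20.8, 21.3 and 22.8 CPM of RPF (adjusted p = 0.882).

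Of 6 mRNAs with a 5′ IRE and 3 with a 3′ IRE that were tested, 0 passed in any readout, and 1, Epas1 in RNA, had an unadjusted p under 0.05. Fth1, the ferritin heavy chain, had 603, 762 and 612 CPM of RPF in Aco1+/+ and 550.4, 777 and 177 CPM in Ireb2+/+, the lowest value being that of replicate 3. Ftl1, the light chain, had 38.9, 96.3 and 54.1 against 54.6, 114 and 23.7 CPM of RPF, again with replicate 3 lowest. Tfrc, the transferrin receptor, had 20.0, 12.1 and 12.7 against 15.1, 15.8 and 46.2 CPM of RPF, with replicate 3 highest. For these 3 genes the liver with pancreas RNA thus had the lowest or highest value of the 6, and without it the fitted RPF differences were 0.01, 0.42 and 0.02. Among the rest, RPF differences were -0.14 ± 0.39 (SE) for Slc40a1, the iron exporter ferroportin, and 0.01 ± 0.34 for Alas2 of heme synthesis. For Epas1, a hypoxia-inducible factor, the value was 0.33 ± 0.17, for the iron transporter Slc11a2 -0.06 ± 0.18 and for the kinase Cdc42bpa 0.13 ± 0.19. Among 18 other genes of iron uptake and export, Pcbp2, an iron chaperone and RNA-binding protein, was lower in RPF (148.5, 157 and 139.6 against 81.9, 92.3 and 113 CPM, log2 fold change -0.63 ± 0.17, adjusted p = 0.0394) and in TE (log2 fold change -0.87 ± 0.21, adjusted p = 0.0298). Over all genes, 1.93% were lower in RPF and 0.692% in TE. Of 16 heme genes, Hp and Slc48a1, a heme transporter (log2 fold change -0.84 ± 0.23, adjusted p = 0.0423), were lower in RPF. In TE, 1 of the 16 was lower, Hp. Without Ireb2+/+ replicate 3, 0 genes of these iron and heme lists passed.

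Genes close to the disrupted loci were counted on their own. Within 10 Mb of Aco1, 1 of 101 tested genes passed in RNA (0.990%), 5 in RPF (4.95%), one of them Aco1 itself, and 3 in TE (2.97%), against 0.187, 3.04 and 1.43% over all genes. Gba2, a glucosylceramidase, had 11.9, 10.8 and 10.9 CPM of RPF in Aco1+/+ and 24.98, 21.8 and 20.7 CPM in Ireb2+/+ (log2 fold change 0.99 ± 0.17 (SE), adjusted p = 0.00918), with no overlap. Gne, of sialic acid synthesis, was higher in RNA (log2 fold change 0.70 ± 0.15, adjusted p = 0.0325), and Bag1 (log2 fold change -0.97 ± 0.20, adjusted p = 0.0195) and Smim27 (log2 fold change -1.38 ± 0.29, adjusted p = 0.0195) were lower in RPF. Within 10 Mb of Ireb2, 0 of 127 genes passed in RNA, 4 in RPF (3.15%) and 3 in TE (2.36%). These were Timm8b (log2 fold change -0.92 ± 0.20, adjusted p = 0.0195), Rplp1 (log2 fold change -1.43 ± 0.29, adjusted p = 0.0195), Rbm7 (log2 fold change -0.55 ± 0.15, adjusted p = 0.0453) and, higher, Rdx (log2 fold change 0.53 ± 0.13, adjusted p = 0.0296) in RPF. Cox5a (log2 fold change -0.91 ± 0.20, adjusted p = 0.0167) and Apoc3 were lower and Dennd4a (log2 fold change 0.67 ± 0.19, adjusted p = 0.0498) was higher in TE.

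Of 57 gene lists, 54 had a gene tested; 6 had a gene called in RNA, 23 in RPF and 22 in TE, and 22 had none in any readout. Single calls of other lists were Atf5, a stress-response factor (log2 fold change -0.80 ± 0.21 (SE), adjusted p = 0.0337), and Sdf2l1 of the ER (log2 fold change -0.80 ± 0.20, adjusted p = 0.0279), both lower in TE. Ier2, an immediate early gene, was lower in RPF (log2 fold change -1.18 ± 0.31, adjusted p = 0.0433), with one Aco1+/+ liver, replicate 3, far above the rest (27.4, 33.4 and 90.1 against 26.1, 20.4 and 17.1 CPM). Azin1, which protects ornithine decarboxylase, was higher in RPF (21.2, 18.7 and 26.4 against 35.6, 34.3 and 46.2 CPM, log2 fold change 0.83 ± 0.19, adjusted p = 0.0237). Of the 8 tested genes of its list, the polyamine pathway, 1 had an RPF difference above 0 and 7 below, with a median of -0.58. The selenoprotein genes Selenow (log2 fold change -0.79 ± 0.19, adjusted p = 0.0294) and Selenof (log2 fold change -0.56 ± 0.14, adjusted p = 0.0294) were lower in RPF. Pygl, liver glycogen phosphorylase, was higher in TE (log2 fold change 0.36 ± 0.10, adjusted p = 0.0456). Of 8 genes that carry known variants between C57BL/6 colonies 5 were tested, and 0 passed. Lists of macrophage, endothelial and stellate markers also had 0 calls. Of 12 hepatocyte markers, 1 was lower in RPF and 2 in TE, with 0 higher, against 1.93 and 0.692% of all genes. Their medians were -0.29 in RPF and -0.22 in TE, and without Ireb2+/+ replicate 3, 1 was lower in RPF and 0 in TE.

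The other 18 mice give the same contrast of lines in other livers, although they share the estimate of the spread with the comparison of wild types at ZT5. In knockouts at ZT5, Ireb2-/- against Aco1-/-, 12 genes passed in RNA (0.112%), 50 in RPF (0.467%) and 3 in TE (0.028%). Of the 325 genes called in RPF between wild types, 314 (96.6%) had the same sign there, against 68.2% of all genes tested, and 16 were called, which is 4.92% of the first list and 32.0% of the second. Of the 38 genes called in RPF when Ireb2+/+ replicate 3 was left out, 36 (94.7%; 68.7% of all genes) had the same sign and 6 were called, which is 15.8 and 12.0% of the lists. For RNA and TE, 19 of 20 (95.0%; 61.4% of all genes) and 95.4% of 153 (63.8%) had the same sign. The knockouts differ in genotype as well as in line, and in run 340 their libraries carry the same number after the run as the wild types of their line, so line and batch cannot be told apart there either. Between wild types at ZT12, 0 genes passed in RNA, 3 in RPF (0.028%) and 0 in TE, with 815, 762 and 1141 at an unadjusted p under 0.05. Of the 325 genes, 192 (59.1%) had the same sign at ZT12, against 57.05% of all genes; 13 of the 20 RNA genes (55.9% of all genes) and 79.1% of the 153 TE genes (58.3% of all genes) did. Of the 38 genes, 16 (42.1%) had the same sign at ZT12, against 56.4% of all genes, and 25 (65.8%) in knockouts at ZT12, against 46.2%. In knockouts at ZT12, 11 genes passed in RNA (0.103%), 404 in RPF (3.78%) and 4 in TE (0.0374%). There Ireb2-/- replicate 1 held pancreas markers too, at 389 CPM of RNA and 1133 CPM of RPF, against at most 18.8 and 14.4 CPM in the rest of the 18 mice, and their part in this contrast was not tested. In this contrast 152 of the 325 genes (46.8%) had the sign of the wild types at ZT5, against 46.3% of all genes, with 14 called the same way and 18 the opposite way. In RNA 13 of 20 (53.8% of all genes) and in TE 85 of 153 (55.6%; 51.4% of all genes) had the same sign. The difference of the line effect between both times passed for 0 genes in RNA, 6 in RPF and 5 in TE, with 757, 1084 and 877 at an unadjusted p under 0.05.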

How the data were processed

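Livers of 6 wild-type mice at ZT5 were compared by ribosome profiling and total RNA sequencing. Per the study's methods the authors removed adapters with cutadapt 3.5, filtered by quality with fastx_toolkit, removed rRNA and tRNA reads with bowtie2 and mapped the rest with STAR 2.70f to the mouse genome (GRCm38, Ensembl annotation). The deposited files hold raw read counts per gene for each sequencing run, without normalization. The counting program and its strand setting are not given in the sources used here, so genes that overlap on opposite strands may share reads. The meaning of the count columns was read from the values: column 3 was taken as coding sequence (CDS), and columns 2 and 4 as 5′ and 3′ UTR. Runs of a library were summed, and 9 of the 12 libraries had 2 runs. In the second run, 347, the number after the run was 7 for each Aco1+/+ RPF library and 8, 3 and 8 for the Ireb2+/+ RPF libraries. The RNA libraries of Aco1+/+ replicate 1 and Ireb2+/+ replicate 1 both carried 4 there.

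Counts were scaled by upper quartile over all 48 libraries. Genes passing edgeR's filter (minimum count 10, minimum total 15) numbered 10696 of 25266 listed. The quasi-likelihood test of edgeR 4.0.16 in R 4.3.3 was fitted on all 24 mice in 8 groups, with 16 residual degrees of freedom and a Benjamini-Hochberg threshold of 0.05. TE was tested in 1 model over both kinds of library with a term for each mouse. Fold changes are Ireb2+/+ over Aco1+/+; SE was derived from the F statistic. "Scaled CPM" is counts per 1000000 after upper-quartile scaling; pancreas and other marker sums are unscaled CPM of coding counts. TE per liver is the log2 of RPF over RNA CPM with a prior count of 0.5. Other measures of 3 against 3 livers were compared by exact permutation tests, two-sided, whose smallest p is 0.1. CDS counts were 1271060 to 3224032 in RNA and 2448915 to 13439600 in RPF, and low counts limit the precision of single genes. On simulated counts with 200 changed genes of 10696, 2-fold changes were found for 53% in RNA, 73% in RPF and 18% in TE, and 3-fold changes for 81%, 91% and 58%.

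Members and gene lists were chosen with earlier results of these data known. Named genes were: for each readout up to 8 higher and 8 lower genes with the largest change among those called without overlap, leaving out predicted genes and pseudogenes; all IRE and IRP genes; up to 2 members a direction of each list by smallest p; and called genes within 10 Mb of Aco1 or Ireb2, up to 4 a locus. Alternatives were TMM, upper quartile within each assay, DESeq2 1.42.0, limma 3.58.1, other filters, run 340 alone, fewer mice, all count columns, a replicate block and leaving out livers. Some genes that the rule names are not reported here. RefSeq promoters (GRCm38.p6) gave the sequences. Figures were drawn with matplotlib 3.10.9.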

Additional observations from a re-analysis of the deposited data

Results flagged for a closer look

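For 11 results the difference between lines was not the same at ZT5 and at ZT12 by the interaction test of the same model (edgeR quasi-likelihood, Benjamini-Hochberg). The value given is the log2 fold change of Ireb2+/+ over Aco1+/+ at ZT5 minus that at ZT12.

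In RPF, 3 ribosomal protein genes had a negative log2 fold change at ZT5 and a positive one at ZT12. The value was -1.86 ± 0.34 (SE) for Rps6 (adjusted p = 0.0343), from -1.37 at ZT5 and 0.49 at ZT12. It was -1.86 ± 0.37 for Rpl23a (adjusted p = 0.0492), from -1.29 and 0.57, and -1.35 ± 0.27 for Rpl38 (adjusted p = 0.0492), from -0.89 and 0.46. The histone gene Hist1h2bc had -2.20 ± 0.38 (adjusted p = 0.0343), from -1.50 and 0.70. Ehhadh, a peroxisomal enzyme of fatty acid oxidation, had 1.11 ± 0.21 (adjusted p = 0.0343), from 0.25 and -0.86, and Aldh4a1, of proline breakdown, had 0.88 ± 0.17 (adjusted p = 0.0422), from 0.48 and -0.40.

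In TE, Rpl14 had -1.92 ± 0.37 (adjusted p = 0.0284), from -1.37 and 0.55. Gabarap, of autophagy, had -1.42 ± 0.26 (adjusted p = 0.0284), from -0.82 and 0.60, and Gc, the vitamin D binding protein, had -0.59 ± 0.12 (adjusted p = 0.0416), from -0.23 and 0.36. The value was -0.98 ± 0.21 for Ddrgk1 (adjusted p = 0.0428), from -0.68 and 0.30, and 0.89 ± 0.19 for Oplah (adjusted p = 0.0428), from 0.40 and -0.49. Leaving out 1 liver at ZT5 gave 0 to 48 such genes in RPF and 0 to 13 in TE. Without the term for each mouse, and with limma, 0 such genes passed in TE.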

How the results depend on the processing

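Counts of genes past the threshold moved with the processing, and the cause was not tested. Between wild types at ZT5, RNA calls were 54 with DESeq2, 12 with a stricter filter, 1 with run 340 alone, 32 with the 12 wild-type mice, 8 with all count columns, 2 without both replicates 3, and 0 to 21 with 1 liver left out. RPF calls were 551 with DESeq2, 63 with run 340 alone, 137 with the 6 mice only, 582 without both replicates 3, and 1 to 1183 with 1 liver left out. TE calls were 74 with run 340 alone, 69 with the 6 mice only, 234 with the 12 wild-type mice, 0 without a mouse term, 0 with limma, 49 without both replicates 3, and 0 to 238 with 1 liver left out.

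At ZT12, RNA calls were 1 with TMM, 15 with DESeq2, 1 without a filter, 1 with the stricter filter and 3 with the 12 wild-type mice. RPF calls were 5 with DESeq2 and 6 with the 12 mice, and TE calls were 6 with TMM, 61 with DESeq2, 1 without a filter and 24 with the 12 mice. For the difference between ZT5 and ZT12, RNA gave 1 with DESeq2 and 0 to 0 with 1 liver left out. RPF gave 89 with DESeq2, 11 with the stricter filter, 15 with the 12 mice, 22 without both replicates 3 and 0 to 48 with 1 liver left out. TE gave 2 with the stricter filter, 15 with the 12 mice, 0 without a mouse term, 0 with limma, 3 without both replicates 3 and 0 to 13 with 1 liver left out.

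Replicate numbers do not pair the mice: deviations of same-numbered mice correlated at -0.02, -0.03 and -0.02 in RNA and at -0.08, 0.06 and 0.01 in RPF. With the number as a replicate block, 21, 363 and 200 genes passed in RNA, RPF and TE at ZT5, 1 in RNA and 1 in TE at ZT12, and 42 in RPF and 8 in TE for the difference between times.

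Some differences changed sign. With 1 liver left out, values ran from -0.27 to 0.075 for Fth1 RNA, -0.42 to 0.074 for Ireb2 RNA, -0.14 to 0.21 for Fbxl5 RNA, -0.69 to 0.49 for Ftl1 RPF, -1.09 to 0.32 for Ftl1 TE and -0.17 to 0.25 for Fbxl5 TE. The next 7 changed sign without both replicates 3, an alternative chosen after seeing the data. These were Slc40a1 RNA (0.17, and -0.54 to -0.052 with 1 liver left out), Slc40a1 RPF (0.47; -0.42 to 0.19), Tfrc RNA (-0.41; -0.34 to 0.46), Tfrc RPF (-0.064; 0.015 to 1.06), Slc11a2 RNA (-0.15; -0.074 to 0.43), Cdc42bpa RNA (0.063; -0.21 to -0.0067) and Epas1 TE (0.076; -0.32 to -0.063). Without both, Ireb2 RNA was 0.16 and Ftl1 TE 0.31. With run 340 alone, Cdc42bpa RPF was -0.13 and Fbxl5 RPF -0.16, and with all count columns Fth1 RNA was 0.090, Slc11a2 RNA -0.10 and Ccdc86 TE 1.13. Of the called results of named genes, 118 held and 4 were lost with TMM. Of the same results, with 1 liver left out, 17, 1 and 113 held without Aco1+/+ replicates 1, 2 and 3 and 40, 83 and 14 without Ireb2+/+ replicates 1, 2 and 3. With run 340 alone 37 of 115 held, with the 6 mice only 54 of 117, and 0 of 47 TE results without a mouse term or with limma.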
